A study of Homo sapiens with 5 samples.

Results

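Cells taken after the end of a 72 h treatment with an inhibitor of acetyl-CoA carboxylase (ACC) were compared with cells still under that inhibitor at 72 h. Barcodes were used if they held 1000 or more detected genes and no more than 20% of UMIs (unique molecular identifiers, 1 per captured transcript) from mitochondrially encoded genes. This left 3537 of 3679 barcodes in the recovery library and 1927 of 2057 in the 72 h inhibitor library, together 5464 of the 15095 cells kept in all 5 libraries of the series.

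The cells were MDA-MB-468, an established human cell line of triple-negative breast cancer, and the study measured their RNA cell by cell. The recovery group is labelled as cells sampled after a 72 h treatment. The 72 h inhibitor group received PF0517515, which the study's title names as an ACC inhibitor, and was sampled at 72 h. Another library held cells left untreated for 72 h, another untreated cells at 0 h, and a 6 h inhibitor library completed the series. The sources used here state no dose, vehicle or length of recovery, so removal of the inhibitor and the added time in culture cannot be told apart. Each group was 1 library, so no difference can be set against a spread between samples and no test is given. Intervals are exact 95% intervals of counting error alone.

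ACC makes malonyl-CoA, the building block of fatty acid synthesis and a brake on the import of fatty acids into mitochondria. Supply of fatty acids and of sterols is coupled through the SREBP transcription factors, which sit in the membrane of the endoplasmic reticulum (ER) with SCAP and INSIG proteins and are released when membrane sterol is low. The same membrane holds the sensors PERK, IRE1 and ATF6 of the unfolded protein response, which raise ER chaperones, degradation of misfolded proteins and, through ATF4 and CHOP, a wider stress programme.

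Motif letters were looked up in the 250 bases before the start site of each gene, in RefSeq promoters on GRCh38.p14. The ER stress response element, the letters CCAAT and CCACG with 9 bases of any kind between them on either strand, is the site through which ATF6 and XBP1 act on chaperone genes. It was found in 6 of the 24 promoters matched to the 26 measured ER chaperone genes (25%), in 11 of the 7198 promoters that matched a gene compared here (0.153%) and in 22 of all 27305 promoters (0.0806%). Of the 19 promoters matched to the 25 measured genes of ER-associated degradation, 0 held it. The 6 chaperone genes with it were HSPA5, HSP90B1, CALR, ERO1B, CRELD2 and CANX. The 3 with the highest ratio of recovery to inhibitor are shown, since HSPA5 leads the chaperone result below, with the element in capitals. The stretches are chr9:125241371-125241429 on the minus strand for HSPA5, chr12:103930196-103930359 on the plus strand for HSP90B1, which holds 2 matches, and chr19:12938364-12938422 on the plus strand for CALR.
HSPA5: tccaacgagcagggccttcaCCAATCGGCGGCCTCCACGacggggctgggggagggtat
HSP90B1: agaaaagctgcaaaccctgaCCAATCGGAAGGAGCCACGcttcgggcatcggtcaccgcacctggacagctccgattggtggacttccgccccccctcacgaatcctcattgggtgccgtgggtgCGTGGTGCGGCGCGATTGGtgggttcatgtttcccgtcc
CALR: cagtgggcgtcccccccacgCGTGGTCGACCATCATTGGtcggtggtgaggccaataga

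A second motif belongs to mitotic genes. The CHR element, searched as TTTGAA on both strands, is bound by the DREAM and MuvB complexes that time transcription to G2 and mitosis. It was found in 25 of the 47 matched promoters of measured G2/M genes (53.2%), in 3704 of all 27305 promoters (13.6%) and in 587 of the 7198 promoters of genes compared (8.16%). The CCAAT box, which NF-Y binds beside it and which overlaps the ER element above, was found in 33 of those 47 (70.2%), in 33% of all promoters and in 36.3% of those of genes compared. The 2 G2/M genes with the highest ratio that held the element are shown, CKS2 at chr9:89311146-89311191 and CDK1 at chr10:60778150-60778195, both on the plus strand, with the CHR letters in capitals.
CKS2: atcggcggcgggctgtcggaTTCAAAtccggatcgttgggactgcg
CDK1: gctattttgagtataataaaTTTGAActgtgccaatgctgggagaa

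The letters TCACNCCAC, a core of the sterol regulatory element that SREBP proteins bind, were found in 0 of 6 matched mevalonate promoters, in 0 of 9 matched promoters of later sterol enzymes and in 1 of 10 among SREBP regulators. They were in 239 of all 27305 promoters (0.875%). The regulator was SREBF2, which encodes SREBP2, at chr22:41832952-41833000 on the plus strand.
SREBF2: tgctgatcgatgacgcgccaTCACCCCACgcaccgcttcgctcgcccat
A window without a match says only that these letters are not in it. A core of the amino acid response element that ATF4 binds, TGATGNAA, was in 1 of 19 matched promoters of the PERK-ATF4 genes, that of ATF3, in 2 of 8 for serine and one-carbon synthesis (25%), those of GOT1 and MTHFD1L, and in 0 of 7 for amino acid transporters. It was in 3.19% of all promoters and in 1.29% of those of genes compared.

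The libraries differed in depth per cell. Recovery cells had a median of 26540 UMIs and inhibitor cells one of 41573, with totals of 102172847 and 85376888 UMIs. After each cell was thinned to 5000 UMIs, the medians of detected genes were 2154 in recovery cells and 2102 in inhibitor cells. The median share of mitochondrially encoded UMIs was 2.55% in recovery, 3.31% at 72 h of inhibitor and 6.17% at 72 h untreated. No barcode was shared between the recovery and 72 h inhibitor cells. The line's markers were detected in both libraries, KRT6A at a low level. EGFR stood at 1428 CPM (UMI counts divided by the library's total and put on a common scale) in recovery and 2391 CPM at 72 h of inhibitor. In the same order KRT18 stood at 2912 and 2040, EPCAM at 326 and 337, and KRT6A at 6.18 and 2.55, against 52.2 at 0 h untreated. Of genes expected to be low, PGR stood at 0.0196 and 0.0234 and ERBB2 at 14.1 and 10.4. Of 15 markers of leukocytes, fibroblasts, endothelium, red cells and liver, 0 reached 10 CPM in any library, and their summed level was 17.7 CPM in recovery and 12.3 CPM at 72 h of inhibitor, most of it COL1A1 and CD68. COL1A2, DCN and LUM were at 0 in both.

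Over the 8943 genes that reached 10 CPM in 1 or both of these libraries, 455 were more than 2-fold higher in recovery (5.09%) and 377 more than 2-fold lower (4.22%). In either direction 9.30% of genes were more than 2-fold apart. The share was 9.33% between the 72 h inhibitor library and its untreated counterpart, and 7.04% between the untreated libraries of 72 h and 0 h. The median log2 ratio was -0.01. With library totals taken without mitochondrially encoded and ribosomal protein genes it was -0.11, and the counts became 348 higher and 524 lower. By any amount, 49.4% of genes were higher in recovery and 50.6% lower, and the counts of each list are read against these shares.

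**Figure D1:**
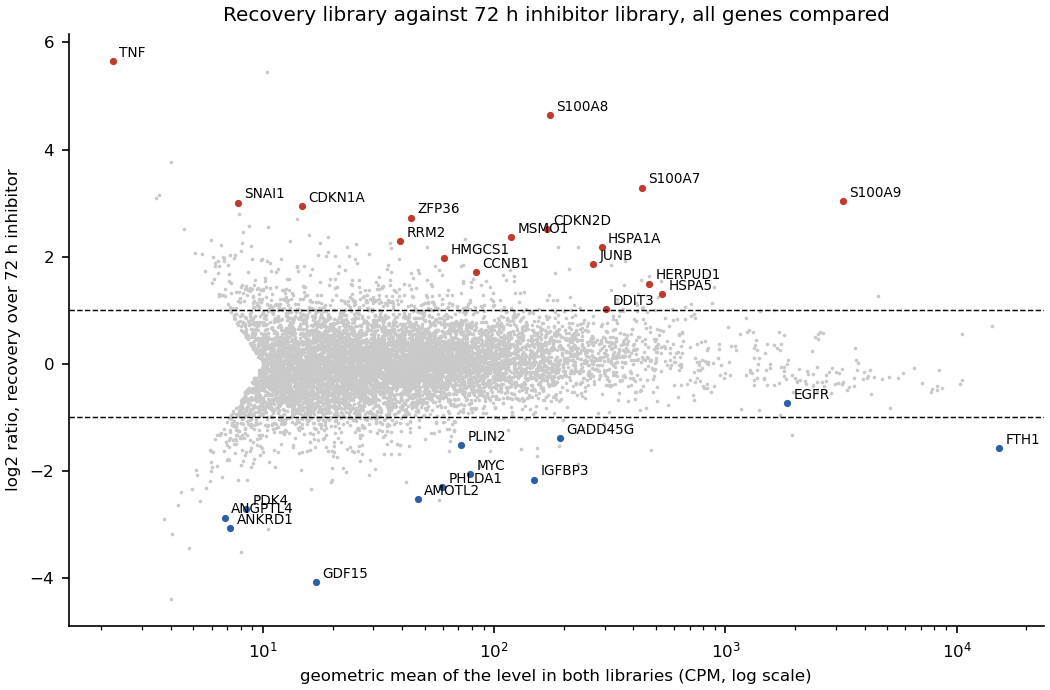
Each point is 1 of the genes compared, with its mean level in both libraries on a log axis (CPM) and its log2 ratio of recovery to 72 h inhibitor on the other; dashed lines mark 2-fold and named points are genes of the text. S100A8 lies at 4.64 and GDF15 at -4.07, while EGFR lies at -0.74.

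Sterol synthesis genes were higher in recovery than in either 72 h library. Of the 10 measured enzymes of the mevalonate pathway to squalene epoxide, 8 were higher than at 72 h of inhibitor and 6 more than 2-fold, with a median log2 ratio of 1.16. Of the 10 measured enzymes of the list that runs from the making of lanosterol to cholesterol, 10 were higher and 4 more than 2-fold, with a median of 0.85. LBR in this list is also a member of the G2/M list. Median log2 ratios of the 2 lists to 72 h untreated cells were 1.31 and 0.46 in recovery, and 0.01 and -0.21 under the inhibitor. By their medians, both lists were close to the 72 h untreated level under the inhibitor and above it in recovery. Against 0 h untreated cells the medians were 0.74 and 0.14 in recovery, and -0.57 and -0.62 under the inhibitor. The list of later enzymes in recovery was thus close to the 0 h untreated level by its median.

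MSMO1 (ENSG00000052802, GRCh38 chromosome 4, 165327623 to 165343160, plus strand), which removes methyl groups from lanosterol derivatives, stood at 270 CPM in recovery, 52.1 at 72 h of inhibitor, 36 at 72 h untreated and 48.2 at 0 h untreated. Its level in recovery was 5.18-fold higher than under the inhibitor (95% interval 5.02 to 5.35). HMGCS1, an early enzyme of the pathway, had 120 CPM in recovery, 30.6 under the inhibitor, 20.7 at 72 h untreated and 40.5 at 0 h untreated. IDI1, which isomerises isopentenyl diphosphate, had 215 CPM in recovery and 63.9 CPM under the inhibitor. SQLE, the squalene epoxidase, had 126 and 43 CPM, and FDFT1, the squalene synthase, 327 and 138 CPM. Differences were smaller for other members. ACAT2, which feeds the pathway with acetoacetyl-CoA, had 71.3 CPM in recovery and 54.5 under the inhibitor, below the 93 of 72 h untreated cells, and SC5D had 54.3 and 50.4 CPM. The 2 enzymes that were lower in recovery were PMVK, at 30.7 and 35.5 CPM, and GGPS1, which leads to geranylgeranyl chains rather than to sterol, at 40.5 and 53.9 CPM.

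Regulators of the pathway were split. INSIG1, itself an SREBP target that holds SCAP in the ER, had 54.5 CPM in recovery, 11.6 under the inhibitor, 7.7 at 72 h untreated and 17.8 at 0 h untreated, a 4.71-fold difference from the inhibitor (95% interval 4.4 to 5.04). SREBF1 had 34.5 and 16.5 CPM in recovery and under the inhibitor, and SREBF2 112 and 76.6 CPM. SCAP, MBTPS1 (the site-1 protease that cuts SREBP), NPC1, NPC2 and INSIG2 were lower in recovery by any amount, with log2 ratios between -0.55 and -0.06. In all, 6 of the 11 measured regulators were higher, 3 of them more than 2-fold.

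**Figure D2:**
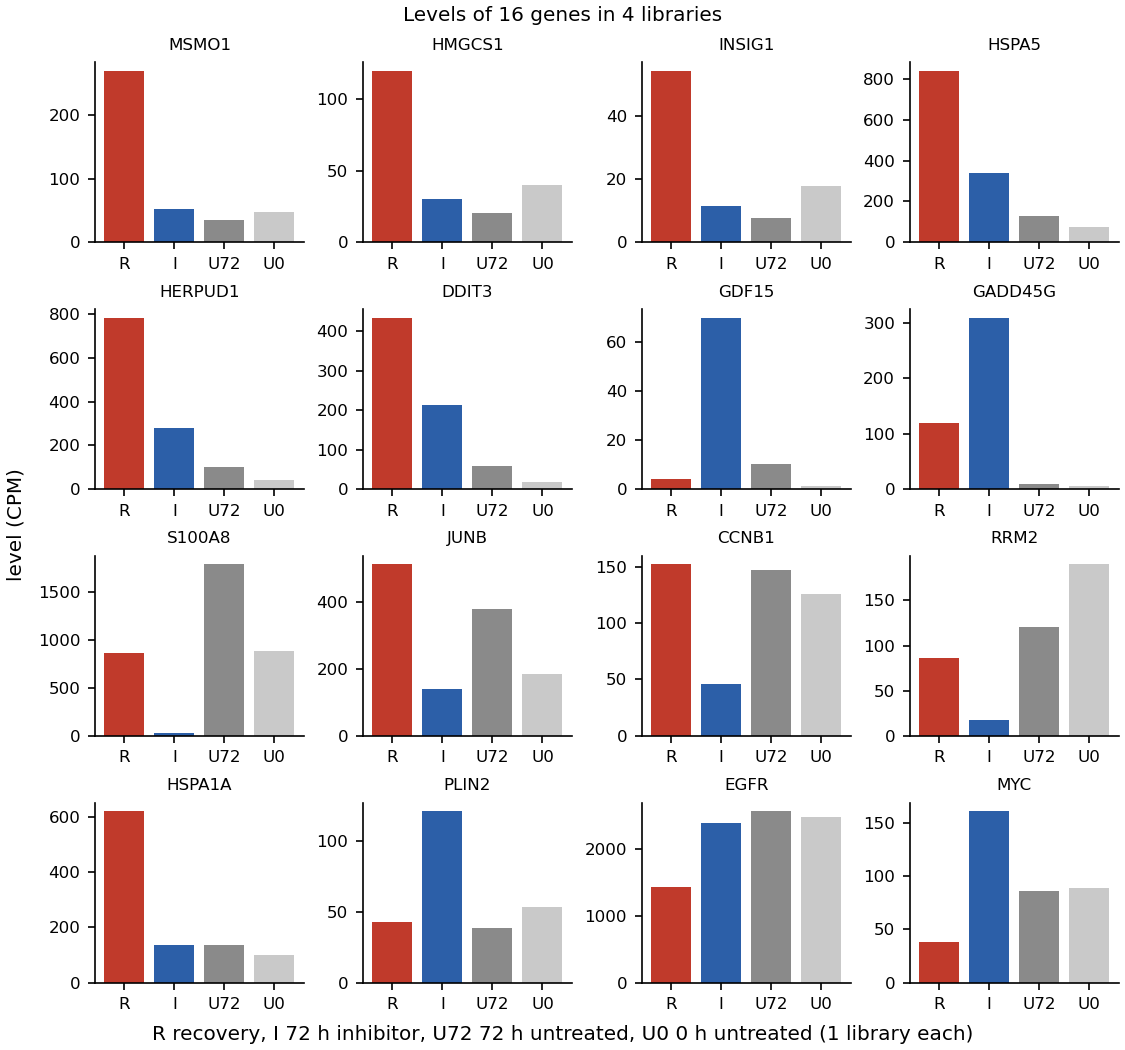
Bars give the level of 16 genes in CPM, from 0, in the recovery, 72 h inhibitor, 72 h untreated and 0 h untreated libraries, 1 library each. MSMO1, INSIG1 and HSPA5 are highest in recovery, GDF15 and GADD45G at 72 h of inhibitor, and S100A8 and RRM2 are lowest at 72 h of inhibitor.

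The drug's own pathway showed a mixed pattern. ACACA (ENSG00000278540, GRCh38 chromosome 17, 37084988 to 37406818, minus strand), which encodes the ACC1 target, had 33 CPM in recovery, 32.9 under the inhibitor, 57.7 at 72 h untreated and 43.2 at 0 h untreated, a log2 ratio of 0.00 between the first pair. ACACB, which encodes ACC2, had 3.78 and 2.6 CPM and was below the minimum for the comparison. FASN, the synthase that uses malonyl-CoA, had 102 CPM in recovery, 39.3 under the inhibitor, 78.1 at 72 h untreated and 77.5 at 0 h untreated. ELOVL5, which elongates polyunsaturated fatty acids, had 140 and 46.9 CPM, and ACSS2, which activates acetate to acetyl-CoA, 124 and 43.5 CPM. SCD, the desaturase that makes monounsaturated fatty acids, had 70.6 and 49.5 CPM, and ACLY 35.9 and 27.1 CPM. Of 21 measured genes of fatty acid synthesis, elongation and desaturation, 15 were higher in recovery, 4 of them more than 2-fold, with a median log2 ratio of 0.32.

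Among genes of PPAR receptors, lipid droplets and lipid uptake, 3 were more than 2-fold lower in recovery and 3 more than 2-fold higher. PDK4, a kinase that turns off pyruvate dehydrogenase, had 3.31 CPM in recovery, 21.6 under the inhibitor, 2.3 at 72 h untreated and 0.577 at 0 h untreated. ANGPTL4, a secreted inhibitor of lipoprotein lipase, had 2.53, 18.6, 1.43 and 1.08 CPM in the same order. PLIN2, a coat protein of lipid droplets, had 42.6 CPM in recovery, 121 under the inhibitor, 38.6 at 72 h untreated and 53.2 at 0 h untreated. All 3 were highest at 72 h of inhibitor and within 2-fold of 72 h untreated cells in recovery, where they were 6.54-fold, 7.32-fold and 2.85-fold lower than under the inhibitor. Other droplet genes were higher in recovery: PLIN3, another droplet coat, had 119 and 51.9 CPM, HILPDA, an inhibitor of droplet lipolysis, 63.8 and 31.7 CPM, and PNPLA2, the lipase ATGL, 84.9 and 51.3 CPM. MFSD2A, a carrier of lysophosphatidylcholine, had 37.4 CPM in recovery, 9.32 under the inhibitor, 3.73 at 72 h untreated and 3.18 at 0 h untreated. Over this list 7 of 11 measured members were higher and 4 lower, 3 past 2-fold each way. Fatty acid oxidation enzymes had 8 of 17 higher and a median of -0.17.

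Most ER chaperone genes stood higher in recovery than under the inhibitor. Of 26 measured ER lumenal chaperones and folding enzymes, 22 were higher, 13 of them more than 1.5-fold (14.2% of all genes were) and 2 more than 2-fold, with a median log2 ratio of 0.55. Their median log2 ratio to 72 h untreated cells was 0.54 in recovery and 0.16 under the inhibitor. HSPA5 (ENSG00000044574, GRCh38 chromosome 9, 125234853 to 125241330, minus strand), the chaperone BiP that binds unfolded proteins and the stress sensors, had 838 CPM in recovery, 340 at 72 h of inhibitor, 130 at 72 h untreated and 74.8 at 0 h untreated. The recovery level was 2.46-fold higher than that under the inhibitor (95% interval 2.43 to 2.49), and it was the highest of the 5 libraries.

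HSP90B1, the ER form of HSP90, had 1007 CPM in recovery, 529 under the inhibitor and 502 at 72 h untreated. CALR, the lectin chaperone calreticulin, had 571, 358 and 347 CPM in the same libraries, and P4HB, a protein disulfide isomerase, 246, 136 and 116 CPM. These 3 stood close to 72 h untreated cells under the inhibitor and were higher in recovery. MANF, a secreted ER stress protein, had 204 CPM in recovery, 117 under the inhibitor and 66.6 at 72 h untreated, and DNAJC3, an HSPA5 co-chaperone, 154, 109 and 67.3 CPM, with the inhibitor between the other 2. Of the 6 genes with the ER element, HSPA5, HSP90B1 and CALR had ratios of 1.30, 0.93 and 0.67, while ERO1B, CRELD2 and CANX had 0.11, -0.07 and -0.19, so genes with these letters were not all higher. The lowest member was DNAJC10, an ER disulfide reductase, with 34.5 CPM in recovery and 51.9 under the inhibitor.

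Degradation from the ER was led by HERPUD1 (ENSG00000051108, chromosome 16, 56932048 to 56944863, plus strand), a membrane scaffold of that machinery, with 785 CPM in recovery, 278 under the inhibitor, 103 at 72 h untreated and 41.3 at 0 h untreated, 2.82-fold higher than under the inhibitor (95% interval 2.78 to 2.86). It was the 1 member more than 2-fold higher among 25, where 5.09% of all genes compared were. SELENOK, at 210 CPM in recovery, was 1.71-fold higher than under the inhibitor, and VCP, the segregase that pulls proteins out of the membrane, had 313 and 206 CPM in recovery and under the inhibitor, while SEL1L and SYVN1, the core of the HRD1 ligase, had 26.6 and 31.6 CPM and 29.3 and 32.4 CPM. Of the 25, 16 were higher, with a median of 0.31. Among the sensors, EIF2AK3, which encodes PERK, had 71.5 CPM in recovery, 25.7 under the inhibitor and 26.1 at 72 h untreated. ERN1, which encodes IRE1, had 25 and 21.4 CPM, ATF6 62.2 and 81.2 CPM, and XBP1, whose mRNA IRE1 splices, 196 and 202 CPM. Spliced XBP1 was not separated in these counts.

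The PERK-ATF4 genes did not all differ in the same direction. Of 23 measured, 15 were higher in recovery and 8 lower, with a median of 0.29, and their median log2 ratio to 72 h untreated cells was 0.68 in recovery and 0.72 under the inhibitor. DDIT3 (ENSG00000175197, GRCh38 chromosome 12, 57516588 to 57521737, minus strand), which encodes the transcription factor CHOP, had 435 CPM in recovery, 213 under the inhibitor, 59.7 at 72 h untreated and 18.5 at 0 h untreated. BBC3, the BH3-only protein PUMA, had 62.5, 23.9, 7.12 and 3.16 CPM in the same order. SESN2, a sestrin that restrains mTORC1, had 41.8, 14.2, 17.3 and 7.19 CPM, and DDIT4, another mTORC1 inhibitor, 643, 328, 200 and 46.6 CPM. ATF4 itself, which is controlled mainly at translation, had 358 CPM in recovery and 256 under the inhibitor and at 72 h untreated alike.

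GDF15 (ENSG00000130513, chromosome 19, 18374731 to 18389176, plus strand), a secreted stress cytokine, had 4.15 CPM in recovery, 69.8 under the inhibitor, 10.1 at 72 h untreated and 1.2 at 0 h untreated. It was 16.8-fold lower in recovery than under the inhibitor (95% interval 15.2 to 18.6), the lowest ratio among the genes ranked. NUPR1, a small chromatin protein of the stress response, had 431 CPM in recovery, 735 under the inhibitor and 357 at 72 h untreated. TRIB3, a pseudokinase that CHOP and ATF4 induce, had 149, 242 and 124 CPM. CREBRF had 53.1, 65.6 and 15.7 CPM and CEBPB 383, 509 and 321 CPM. Of the members that were lower in recovery than under the inhibitor, GDF15, NUPR1, TRIB3 and CEBPB stood below or within 1.5-fold of the 72 h untreated level, while CREBRF stood above that range, as did DDIT3, BBC3 and DDIT4 among the members that were higher. Of the 23 genes, 21 were above 72 h untreated cells in recovery, and 18 were under the inhibitor.

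**Figure D3:**
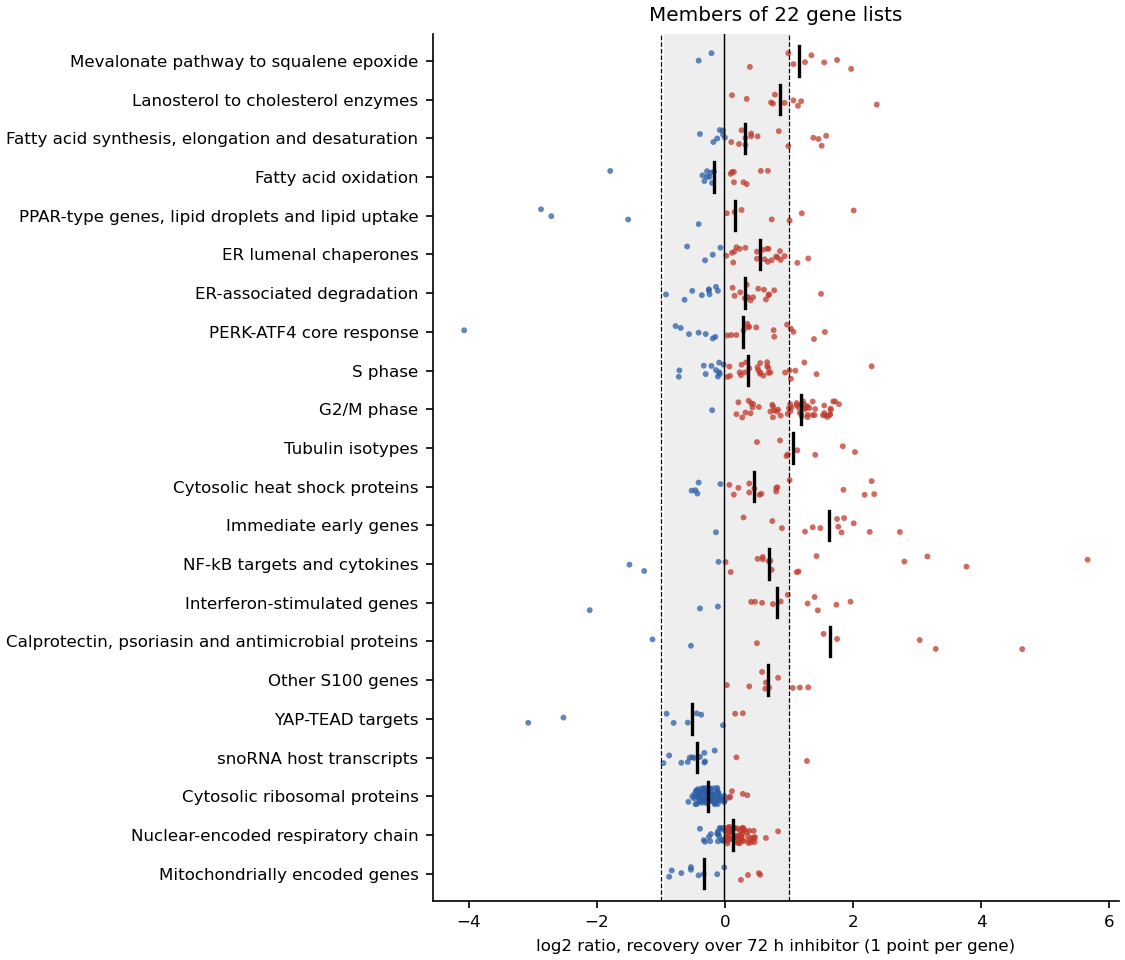
Each point is 1 measured gene, placed at its log2 ratio of recovery to 72 h inhibitor, in 22 lists; the black bar is the list's median, the grey band holds the central 90% of all genes compared and dashed lines mark 2-fold. G2/M phase has 55 of 56 genes to the right of 0 and cytosolic ribosomal proteins 77 of 82 to the left.

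Cell cycle genes differed more in mitosis than in DNA synthesis. Of 56 measured G2/M genes 55 were higher in recovery, 36 of them more than 2-fold, with a median log2 ratio of 1.18. Against 72 h untreated cells their median was 0.07 in recovery and -0.96 under the inhibitor. CCNB1 (ENSG00000134057, GRCh38 chromosome 5, 69167010 to 69178245, plus strand), the cyclin of mitotic entry, had 152 CPM in recovery, 46.2 under the inhibitor, 147 at 72 h untreated and 126 at 0 h untreated, 3.28-fold higher than under the inhibitor (95% interval 3.17 to 3.4). AURKB, the kinase of chromosome alignment, had 63.7, 18.5, 41.7 and 36.1 CPM, UBE2C, a ubiquitin carrier of the anaphase-promoting complex, 329, 102, 178 and 165 CPM, and CKS2, a CDK subunit, 828, 265, 334 and 294 CPM. CDK1, shown above with CKS2, had 216 and 69.3 CPM in recovery and under the inhibitor. The member that was lower was CTCF, with 39.4 and 45.2 CPM. Tubulin isotypes were higher in 8 of 8, 4 of them more than 2-fold.

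S phase genes were higher in 27 of 38, 6 of them more than 2-fold, with a median of 0.36. Their median ratio of recovery to 72 h untreated was -0.41, and to 0 h untreated -1.15, with 9 of the 38 above 72 h untreated cells and 3 above 0 h untreated cells. RRM2, the ribonucleotide reductase subunit, had 86.5 CPM in recovery, 17.7 under the inhibitor, 121 at 72 h untreated and 190 at 0 h untreated. GINS2, a subunit of the replicative helicase, had 22.6, 14.1, 42.3 and 90.4 CPM, and MCM4, another helicase subunit, 20, 24.6, 28.2 and 60.6 CPM. PRIM1, a primase subunit, had 10.8 CPM in recovery, 17.8 under the inhibitor and 29.3 at 72 h untreated. Among the members above 72 h untreated cells, DTL, which targets licensing factors for degradation, had 39.8 CPM in recovery, 18.5 under the inhibitor, 27.8 at 72 h untreated and 46.8 at 0 h untreated. CENPU, a centromere protein, had 75.8, 37.5, 59.4 and 87.7 CPM, and UBR7 20.1, 9.90, 12.1 and 15.4 CPM, above both untreated libraries. Cells at or under the inhibitor library's medians for both lists made up 10.4% of thinned recovery cells, 43% of inhibitor cells, 13.8% of 72 h untreated cells and 2.22% of 0 h untreated cells.

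Of 18 measured CDK inhibitors, G1 cyclins, MYC and GADD45 genes, 11 were higher in recovery, 8 of them more than 2-fold, and 2 were more than 2-fold lower. CDKN1A (ENSG00000124762, GRCh38 chromosome 6, 36676460 to 36687339, plus strand), which encodes p21, had 40.9 CPM in recovery, 5.31 under the inhibitor, 12.7 at 72 h untreated and 8.1 at 0 h untreated, 7.71-fold higher than under the inhibitor (95% interval 7 to 8.51). CDKN2D, the p19 inhibitor of CDK4, had 403, 70.9, 108 and 83 CPM, and CDKN1C, which encodes p57, 47.2, 21.4, 13.4 and 4.13 CPM. MXD1, an antagonist of MYC, had 78.9 and 24.4 CPM in recovery and under the inhibitor. MYC had 38.6 CPM in recovery, 161 under the inhibitor, 85.8 at 72 h untreated and 88.6 at 0 h untreated, the lowest of these 4 in recovery and the highest under the inhibitor. GADD45G, a growth arrest gene, had 119, 310, 8.68 and 5.07 CPM, so recovery lay between the inhibitor and the untreated cells, while its relative GADD45B, at 283 CPM in recovery and 112 at 72 h untreated, was 2.3-fold higher in recovery than under the inhibitor.

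Immediate early genes were higher in 13 of 14, 10 of them more than 2-fold, with a median of 1.62. Against 72 h untreated cells their median was 0.16 in recovery and -1.43 under the inhibitor. JUNB (ENSG00000171223, GRCh38 chromosome 19, 12791496 to 12793315, plus strand), an AP-1 subunit, had 512 CPM in recovery, 141 under the inhibitor, 380 at 72 h untreated and 184 at 0 h untreated. FOS, its partner, had 104, 29.5, 206 and 101 CPM. ZFP36, which degrades cytokine mRNAs, had 113, 17, 45.7 and 25 CPM, and NR4A1, an orphan nuclear receptor, 38.6, 8.05, 71 and 31.1 CPM. IER5 was the exception, with 217 CPM in recovery and 238 under the inhibitor.

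NF-kB targets and cytokines were higher in 15 of 18, 7 of them more than 2-fold. TNF, a cytokine that activates the pathway, had 16 CPM in recovery, 0.316 under the inhibitor, 1.32 at 72 h untreated and 0.533 at 0 h untreated, from 1630 and 27 UMIs in recovery and under the inhibitor. That is 50.4-fold (95% interval 34.5 to 76.8). TNFAIP3, a feedback inhibitor of the pathway, had 20.8, 2.99, 5.21 and 3.04 CPM, and NFKBIA, another, 157, 58.3, 56.1 and 32.1 CPM. The chemokines CXCL1 and CCL20 had 14.7 and 10.7 CPM in recovery against 1.08 and 1.19 CPM under the inhibitor. CSF1 and CX3CL1 went the other way, with 22.7 and 21.2 CPM in recovery against 63.9 and 50.9 CPM under the inhibitor. Interferon-stimulated genes were higher in 11 of 14, with IFI44 at 19.6 and 5.05 CPM and BST2, the tetherin antiviral protein, at 88.8 and 32.5 CPM, and IFIT2 lower at 3.21 and 13.9 CPM. SNAI1, a repressor of E-cadherin, had 22.2 CPM in recovery, 2.75 under the inhibitor, 2.24 at 72 h untreated and 0.63 at 0 h untreated. It was the 1 of 13 listed mesenchymal genes and regulators that reached 10 CPM, and CDH1, the E-cadherin gene, had 35.4 and 22.9 CPM in recovery and under the inhibitor.

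Among genes of at least 20 CPM in 1 of both libraries, 3 members of the calprotectin group had the highest ratios. S100A8 (ENSG00000143546, GRCh38 chromosome 1, 153390032 to 153391188, minus strand), a calcium-binding alarmin, had 868 CPM in recovery, 34.8 under the inhibitor, 1790 at 72 h untreated and 890 at 0 h untreated. S100A9 (ENSG00000163220, chromosome 1, 153357854 to 153361027, plus strand), its partner in calprotectin, had 9220, 1119, 11356 and 6076 CPM, and S100A7, psoriasin, 1365, 140, 2493 and 1511 CPM. All 3 in recovery lay below 72 h untreated cells, and S100A9 lay above 0 h untreated cells. The protease inhibitors SLPI and PI3 had 901 and 41.3 CPM in recovery against 310 and 12.3 CPM under the inhibitor. DEFB1, a defensin, differed from them, with 202 CPM in recovery, 443 under the inhibitor and 75.9 at 72 h untreated, as did LCN2, the iron-scavenging lipocalin, with 723, 1041 and 913 CPM. The 10 other measured S100 genes were higher in 10 of 10, 3 of them more than 2-fold.

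Heat shock genes, a list mostly of cytosolic proteins, were higher in 16 of 21, 5 of them more than 2-fold. HSPA1A and HSPA1B, near-identical HSP70 genes whose reads the counting could split, had 620 and 168 CPM in recovery, 137 and 33.4 under the inhibitor, 136 and 29.9 at 72 h untreated and 100 and 19.1 at 0 h untreated. DNAJB1, their co-chaperone, had 609, 169, 149 and 114 CPM. Of the members that were lower, HSPD1, the mitochondrial HSP60, had 694 CPM in recovery, 922 under the inhibitor and 1088 at 0 h untreated, and FKBP4, an HSP90 co-chaperone, 41.9, 60.3 and 66.8 CPM. HSPA8, the constitutive HSP70, had 541, 311 and 930 CPM. Against 0 h untreated cells the list's median in recovery was -0.01, with 10 of 21 above, and against 72 h untreated cells 0.26, with 14 of 21 above.

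Ribosomal protein genes were lower in recovery in 77 of 82, 0 of them by more than 1.5-fold (14.3% of all genes were), with a median of -0.26, and snoRNA host transcripts in 12 of 14, with a median of -0.43. Against 72 h untreated cells the medians were 0.33 and 0.95 in recovery and 0.56 and 1.28 under the inhibitor. GAS5, a host transcript that accumulates when translation or mTOR activity is low, had 1235 CPM in recovery, 2400 under the inhibitor, 999 at 72 h untreated and 532 at 0 h untreated. ZFAS1 had 2365, 3450, 1213 and 694 CPM, and SNHG12 139, 208, 29.9 and 20.5 CPM. GAS5, ZFAS1 and SNHG12 were above both untreated libraries in recovery and under the inhibitor. Of the 14 hosts, 13 were above 72 h untreated cells in recovery, and 13 above 0 h untreated cells. SNHG3 was the host more than 2-fold higher in recovery, with 139 CPM there and 57 under the inhibitor.

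Most mitochondrially encoded transcripts were below untreated cells in recovery. Of 13, 1 was above 72 h untreated cells and 3 were above 0 h untreated cells. Against the inhibitor, 4 were higher in recovery and 9 lower, with a median of -0.33, and their median against 72 h untreated was -1.09 in recovery and -0.99 under the inhibitor. MT-ATP6 had 1522 CPM in recovery, 1188 under the inhibitor, 5469 at 72 h untreated and 5343 at 0 h untreated. MT-CO2 had 3857, 6849, 17522 and 17988 CPM, the lowest in recovery. MT-ND4L, at 338, 489, 303 and 185 CPM, was above both untreated libraries, and MT-ND5, at 576, 920, 815 and 470 CPM, was above the 0 h one. Nuclear-encoded subunits of the respiratory chain had 60 of 77 higher in recovery, with a median of 0.13.

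FTH1, the ferritin heavy chain that stores iron, had 8871 CPM in recovery, 26386 under the inhibitor, 9608 at 72 h untreated and 8298 at 0 h untreated, so the recovery level lay between those of the untreated libraries. FTL, the light chain, had 1634, 2346, 595 and 426 CPM and did not come back as far. Both genes have many processed copies in the genome, so their counts are uncertain. YAP-TEAD targets were lower in 8 of 10. ANKRD1 had 2.49 CPM in recovery, 20.9 under the inhibitor, 5.37 at 72 h untreated and 8.58 at 0 h untreated, AMOTL2, an angiomotin that restrains YAP, 19.5, 112, 49 and 46 CPM, and CCN1 29.5, 51.4, 91.7 and 87.5 CPM. PHLDA1 had 26.9, 132, 27.4 and 36.1 CPM, and IGFBP3, a carrier of insulin-like growth factors, 70.5, 316, 162 and 221 CPM. EGFR, which MDA-MB-468 carries at high level, had 1428, 2391, 2570 and 2477 CPM and was lowest in recovery, while its ligand HBEGF had 21.6, 6.3, 6.93 and 2.75 CPM.

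Where recovery lay for genes that differed under the inhibitor was described with libraries that do not share cells. Genes more than 2-fold apart between the 72 h inhibitor and 72 h untreated libraries were placed by their ratio of recovery to 0 h untreated. The shares below do not count genes that came back. A gene could already lie within 1.5-fold of 0 h untreated cells under the inhibitor. Differences between the untreated libraries enter the shares as well. Of the 185 genes that were higher under the inhibitor (1.98% of 9346), 134 were more than 1.5-fold above 0 h untreated cells in recovery (72.4%), 43 within 1.5-fold (23.2%) and 8 below (4.32%), with a median log2 ratio of 1.22. Of the 687 that were lower under the inhibitor (7.35%), 392 were more than 1.5-fold below 0 h untreated cells (57.1%), 232 within (33.8%) and 63 above (9.17%), with a median of -0.75. Over all 9346 genes the shares were 21.4% above, 53.3% within and 25.3% below, with a median of -0.06. A return to within 1.5-fold of 0 h untreated cells was seen for S100A8, NR4A1, FOS and CCNB1 among the lower genes and for PLIN2 and PHLDA1 among the higher ones. DDIT3, HSPA5, BBC3, GADD45G and FTL stayed above, and RRM2, GINS2 and MT-ATP6 below. The untreated libraries of 72 h and 0 h were themselves more than 2-fold apart for 7.04% of genes. Against 72 h untreated cells, the log2 ratio of recovery was -0.48 for RRM2, -1.04 for S100A8, -0.99 for FOS and -0.88 for NR4A1. RRM2 was thus within 1.5-fold there, and S100A8, FOS and NR4A1 were more than 1.5-fold below. CCNB1, PLIN2 and PHLDA1 were within 1.5-fold of both untreated libraries, and DDIT3, HSPA5, BBC3 and GADD45G above both.

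**Figure D4:**
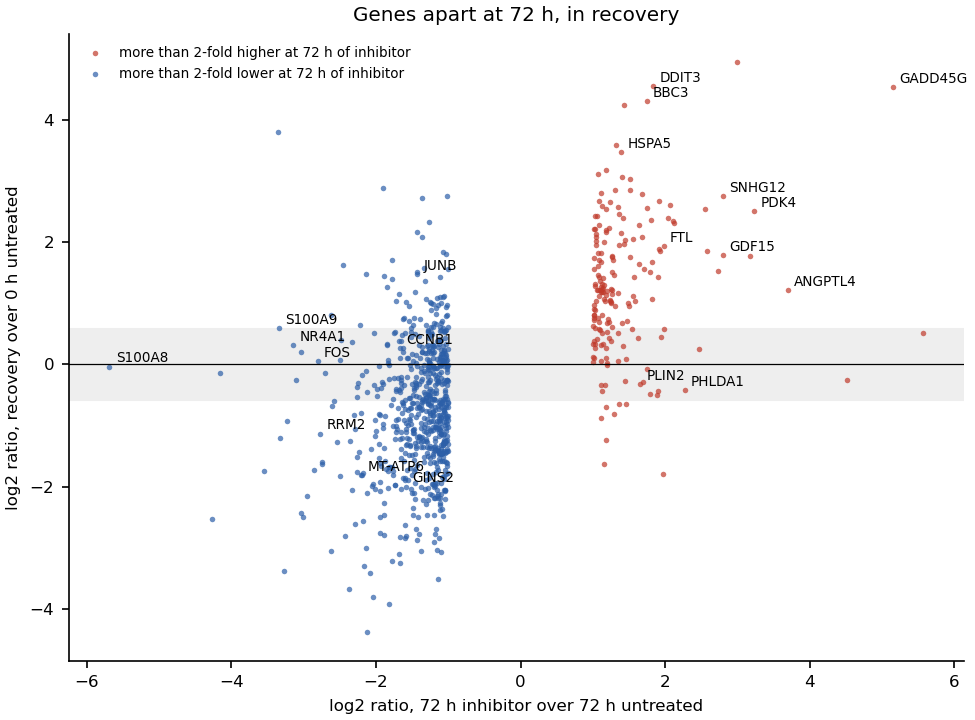
Each point is a gene more than 2-fold apart between the 72 h inhibitor and 72 h untreated libraries, with that log2 ratio on the horizontal axis and the log2 ratio of recovery to 0 h untreated on the vertical one; the grey band is 1.5-fold. Of the 185 higher genes 72.4% lie above the band, and of the 687 lower genes 57.1% lie below it.

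Counts per cell show how these differences were spread. In cells thinned to 5000 UMIs (3462 of recovery and 1868 of inhibitor, with 75 and 59 shallower cells left out), the median recovery cell had 12 UMIs of the 2 sterol lists together and the median inhibitor cell 6. Of recovery cells 63.4% (exact binomial interval 61.8 to 65) exceeded the 90th percentile of inhibitor cells, which 8.51% of inhibitor cells exceeded, as 15.6% of 72 h untreated cells did. So did 35.3% of 0 h untreated cells and 33% of 6 h inhibitor cells. For ER chaperones the medians were 26 and 16 UMIs, and 46.2% of recovery cells exceeded that percentile, against 8.99% of inhibitor cells and 1.91% of 72 h untreated cells. For the PERK-ATF4 genes the medians were 18 and 17 and the shares 16.2% and 10.0%. For the calprotectin list they were 56 and 12 UMIs, and 78% of recovery cells, 9.53% of inhibitor cells and 83.5% of 72 h untreated cells were above. For G2/M genes 30.5% of recovery cells, 9.80% of inhibitor cells and 23.7% of 72 h untreated cells were above, with a 10th to 90th percentile range of 7 to 72 UMIs in recovery. For heat shock genes the medians were 37 UMIs in recovery cells, 26 in inhibitor cells and 42 in 0 h untreated cells, and 45.4%, 9.90% and 64.7% of these cells were above. The intervals leave out the randomness of the thinning.

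These shares are relative to a cell's total. Without thinning, the medians per cell were 67 and 48 UMIs for the sterol lists in recovery and inhibitor cells, 138 and 130 for ER chaperones, 77 and 84 for ER-associated degradation, 96 and 138 for the PERK-ATF4 genes, 43 and 44 for S phase genes, 127 and 61 for G2/M genes, 204 and 226 for heat shock genes and 293 and 100 for the calprotectin list. The shares of recovery cells above the unthinned 90th percentile of inhibitor cells were 27.1% for sterol genes, 10.2% for ER chaperones, 6.67% for ER-associated degradation, 1.84% for PERK-ATF4 genes, 2.18% for S phase genes, 18.7% for G2/M genes, 8.45% for heat shock genes and 50.1% for the calprotectin list. A smaller RNA content per cell and a lower capture cannot be told apart here. For ER-associated degradation, S phase, heat shock and PERK-ATF4 genes the higher medians in recovery were thus medians of the share of a cell's UMIs, while the unthinned medians were lower. For ER chaperones the unthinned median was higher in recovery, by less than the share was. Single genes could be higher on both scales: without thinning HSPA5 had a mean of 24.2 UMIs per recovery cell and 15.1 per inhibitor cell, HSPA1A 17.9 and 6.05, and DDIT3 12.6 and 9.45.

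**Figure D5:**
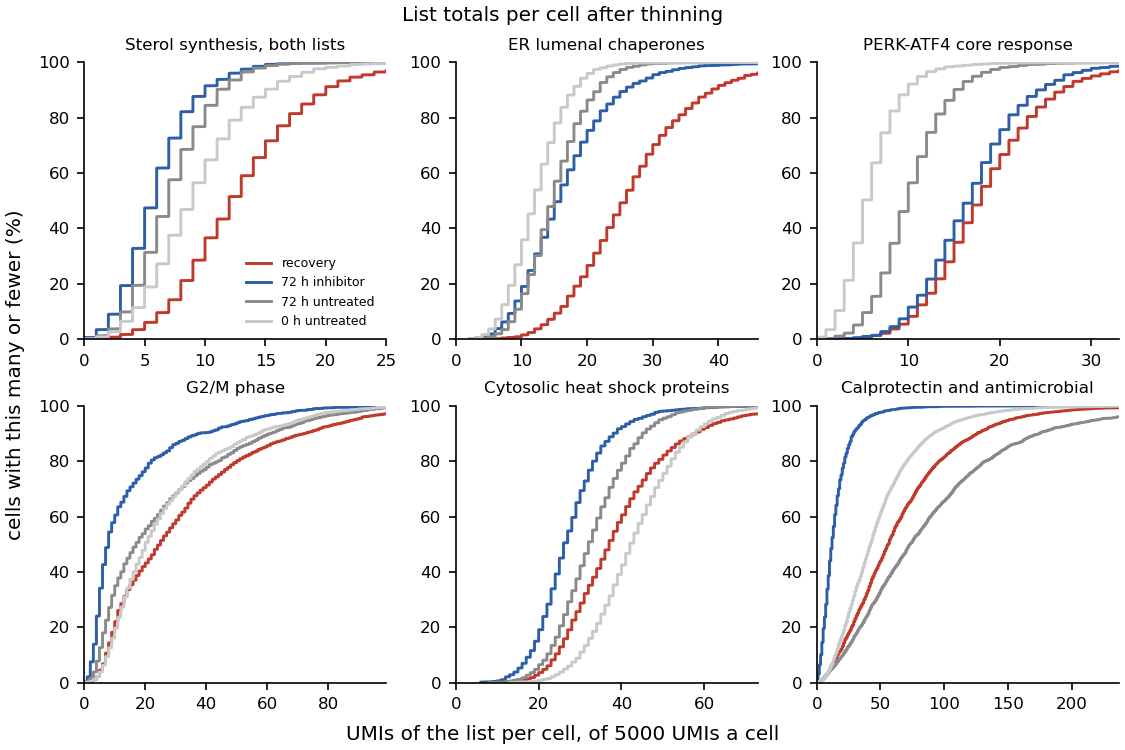
Lines give the percentage of thinned cells with a number of list UMIs or fewer, for 6 lists, in recovery, 72 h inhibitor, 72 h untreated and 0 h untreated cells. The recovery line lies to the right of the inhibitor line for sterol, ER chaperone, G2/M, heat shock and calprotectin genes, and close to it for PERK-ATF4 genes, with medians of 18 and 17 UMIs.

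Among cells at or under the inhibitor library's medians of both cell cycle lists, 359 of recovery and 804 of inhibitor, 22 of 26 ER chaperones were again higher, with a median of 0.54, and the sterol lists had medians of 1.29 and 0.99. HSPA5 had a log2 ratio of 1.35 there, MSMO1 2.55, S100A8 5.02, CDKN1A 3.25 and GDF15 -2.71. Each of these had the same direction as over all cells.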

How the data were processed

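Single-cell RNA libraries (10x 3' version 3.1, per the labels' protocols) were processed by the submitters with Cell Ranger (version 7.1.0) and GRCh38, as their processing notes list. The deposited values are UMI counts per gene and barcode, whole numbers for 36601 features. The annotation release, and whether intronic reads counted, is not given in the sources used here.

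For each library the counts were added over its kept cells and expressed as CPM. Genes at 10 CPM or more in 1 of both libraries were compared, and a sum of 0 was set to 3 counts. Ratios have exact 95% Clopper-Pearson intervals, conditional on the sum of both counts. Doublets were kept and no clusters were formed. Overlapping and near-identical genes may share reads.

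The part compared, the 57 gene lists, the motifs and the rule for named genes were chosen with earlier results of these data known. The rule named the 15 highest and 15 lowest ratios among genes of at least 20 CPM, without clone-style, LINC and MT- names, 6 further genes (ACACA, ACACB, HSPA5, DDIT3, ATF4 and XBP1), and up to 6 members of each list. TNF, CXCL1 and CCL20 were named as list members. Markers, and list members printed beside them for contrast, were chosen after their values were seen. Some list members are not reported here. The positions of genes come from GENCODE 29 on GRCh38, and promoters from RefSeq.

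The 12 other settings changed the cell filter (none, a limit of 10% mitochondrial UMIs, a minimum of 10000 UMIs, or without the 5% of deepest cells), the scaling (size factors, trimmed means, or totals without mitochondrial and ribosomal genes), the weight of cells (equal, or thinned), the expression minimum (none or 50 CPM) and the cells' cycle state.

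On simulated data for this comparison, with 8943 genes, 200 of 200 changed genes came out in the right direction and 96.5% of intervals held the true ratio. Of 8743 unchanged genes 0 were more than 2-fold apart. Only counting error was simulated. The tools were edgeR 4.0.16 in R 4.3.3, for 1 scaling, and pandas 2.3.3, numpy 2.4.6, scipy 1.17.1 and matplotlib 3.10.9 in Python 3.11.15.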

Additional observations from a re-analysis of the deposited data

How the results depend on the processing

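With 1 library a group there was no replicate to leave out. No paired analysis was possible because each group has 1 library. Under 12 other settings, the 129 named genes more than 2-fold apart gave 1484 values, and 0 of them had the other sign, while 23 of these genes came within 2-fold in at least 1 setting. The counts of 455 higher and 377 lower genes became 3833 and 4068 with no expression minimum, where genes of a few counts enter, and 188 and 81 with a minimum of 50 CPM, where fewer genes are compared. With that minimum, members higher were 9 for PERK-ATF4 genes, 7 for S phase and 6 for NF-kB targets, and members lower 5 for YAP-TEAD targets. Fewer members of these lists reached it, so these counts cannot be set against those of the main setting. Of all 3524 genes compared with it, 56.4% were higher. Among cells low in both cell cycle lists, members higher were 17 for S phase and 27 for G2/M, lists by which those cells were chosen. The members compared may differ there, and of all 8838 genes compared 52.8% were higher. Of 53 list medians, 16 had the other sign in at least 1 setting, and each of them was within 0.24 of 0 on the log2 scale. They include fatty acid oxidation (-0.17, between -0.29 and 0.09), basal keratins (-0.24, between -0.34 and 0.77) and the sensors of the unfolded protein response (-0.05, between -0.15 and 0.25). Differences between libraries that are not due to the groups could not be measured.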

Other observations

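Clock genes were among those higher in recovery. PER1 had 40.7 CPM in recovery, 14.6 at 72 h of inhibitor, 12.7 at 72 h untreated and 7.05 at 0 h untreated, and NR1D1, the repressor REV-ERB alpha, had 48.6, 20.9, 7.31 and 5.89 CPM. CLOCK had 16.1, 26.2, 34.6 and 33.6 CPM and BHLHE41 16.9, 42.2, 26.5 and 31.4 CPM, so the list of 13 was split, with 8 higher and 5 lower. The metallothionein MT1F, a zinc-binding protein, had 251 CPM in recovery, 125 under the inhibitor, 121 at 72 h untreated and 56.9 at 0 h untreated, and SLC30A1, a zinc exporter, 34.1, 28.1, 8.75 and 8.03 CPM. ULK1, the kinase that starts autophagy, had 52.3 CPM in recovery, 18.9 under the inhibitor and 11.3 at 72 h untreated. SR splicing factors and CLK kinases were higher in 13 of 16, while CLK4 had 27.8 CPM in recovery, 67.4 under the inhibitor and 19.1 at 72 h untreated. The nuclear RNAs MALAT1 and NEAT1 had 12825 and 2085 CPM in recovery against 8690 and 1383 CPM under the inhibitor.

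Over the 3462 thinned recovery cells, Spearman's rho between list totals was 0.38 for ER chaperones and ER-associated degradation, 0.39 for G2/M and heat shock genes, -0.02 for sterol and PERK-ATF4 genes and 0.13 for sterol genes and ER chaperones. In 1868 inhibitor cells the same values were 0.34, 0.23, -0.00 and 0.13. The cells of a library share its preparation and the counts are sparse. By genomic span, the median log2 ratio was 0.06 in the shortest 10% of genes and -0.19 in the longest 10%, and by chromosome it lay between -0.12 (chromosomes 8 and 21) and 0.10 (X). The 72 h untreated library over the 0 h one gave -0.04 and 0.30 for the same genes.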
